A study of Mus musculus with 16 samples.

Results

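The NFAT transcription factors and the calcineurin that activates them were described in mouse CD8+ T cells after Cas9 targeting of Tardbp, the gene of the RNA-binding protein TDP-43. The 7 genes were chosen by name out of 55536 annotated genes: the NFAT genes Nfatc1, Nfatc2, Nfatc3 and Nfat5, the calcineurin catalytic subunit genes Ppp3ca and Ppp3cb, and Rcan1, a feedback inhibitor of calcineurin. They carry 61 annotated transcripts, of which 33 passed the filter on low counts and 8 had 0 counts in all 16 libraries. OT-I cells, whose transgenic receptor recognizes the ovalbumin peptide SIINFEKL and whose donors lack Rag1 or Rag2, were electroporated with the Cas9 nuclease together with a guide RNA, scrambled in the group called Control gRNA and aimed at Tardbp in the group called Tardbp gRNA. After transfer into C57BL/6J recipients, both groups were stimulated with SIINFEKL plus anti-OX40 and anti-41BB, agonists of costimulation. Donor CD8+ T cells were sorted from spleen and lymph nodes by their congenic CD45 alleles. The labels put this at day 4 and the methods somewhat earlier. The study's text also names a stimulation between purification and sequencing, which the labels and methods do not describe as a separate step. Each group held 8 libraries. Mice of both sexes were used in the study, with no age given by group. The targeted cells were an edited pool and not a clone, so cells with an intact Tardbp could remain among them. The study's text reports, from an immunoblot, that cells given the Tardbp guide did not make the protein, which RNA counts do not measure.

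In a resting T cell the NFAT proteins are held in the cytoplasm by phosphorylation. Receptor signals release calcium from the endoplasmic reticulum and open channels in the plasma membrane, calcium and calmodulin switch on the phosphatase calcineurin, and calcineurin strips the phosphates so that Nfatc1, Nfatc2 and Nfatc3 enter the nucleus. Nfat5 shares the DNA-binding domain but not the calcineurin docking site, and is known for the response to osmotic stress, while Rcan1 is itself an NFAT target that restrains calcineurin.

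Control gRNA libraries held 73649630 to 93893357 estimated counts and Tardbp gRNA libraries 56016533 to 94801105. Tardbp itself, which checks the labels, had 192 ± 13.3 CPM (counts scaled by TMM to a common library total, SD, n = 8) in Control gRNA and 135 ± 11.3 in Tardbp gRNA, and the ranges did not overlap. The 6 T cell markers summed to 4270 to 5150 CPM for Control gRNA against 6330 to 7810 for Tardbp gRNA. Of these, 6 of 6 were called higher (edgeR adjusted p under 0.05), beside 23.5% of the 16650 genes tested. B cell markers summed to 6.54 to 12.8 and 7.53 to 19.0 CPM, CD4 T cell markers to 3.30 to 12.5 and 4.86 to 9.37, myeloid markers to 24.1 to 41.8 and 31.9 to 92.3 (1 of 5 called higher) and red cell precursor markers to 0.225 to 7.19 and 4.56 to 85.3 (both of the 2 tested called higher). No gene of these marker lists was at 0 in all libraries. The recorded RNA concentration was 34.9 to 197.1 for Control gRNA but 10.1 to 24.0 for Tardbp gRNA, in a unit that its header leaves out. These ranges did not overlap, so the concentration and the guide cannot be told apart. The part of the markers in the results was not tested.

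The sequences shown first are those on which a splicing value or a start of a gene in the group turns. The Nfat5 exon (54 bases, chr8:107295581-107295634, plus strand) and the Ppp3cb exon (30 bases, chr14:20503247-20503276, minus strand) are coding exons of GENCODE M21 (GRCm38) that some transcripts of each gene skip. Their lengths are 18 and 10 codons with no base left over.
Nfat5 exon: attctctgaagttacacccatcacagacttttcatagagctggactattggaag
Ppp3cb exon: ccacagttgaggctattgaggctgaaaaag

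Rcan1 has 2 known promoters, and the one inside the gene is the known calcineurin-responsive one. The 250 bases before each start are given from RefSeq (GRCm38.p6, minus strand), with the core motif of NFAT sites, GGAAA or its reverse complement TTTCC, in capitals. The upstream region lies at chr16:92466170-92466419 and the internal region at chr16:92400079-92400328.
Rcan1 upstream start: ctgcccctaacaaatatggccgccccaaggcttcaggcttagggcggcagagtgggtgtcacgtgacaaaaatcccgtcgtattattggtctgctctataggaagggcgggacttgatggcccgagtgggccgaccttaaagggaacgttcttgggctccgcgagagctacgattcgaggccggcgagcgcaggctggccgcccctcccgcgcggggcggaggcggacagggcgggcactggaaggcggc
Rcan1 internal start: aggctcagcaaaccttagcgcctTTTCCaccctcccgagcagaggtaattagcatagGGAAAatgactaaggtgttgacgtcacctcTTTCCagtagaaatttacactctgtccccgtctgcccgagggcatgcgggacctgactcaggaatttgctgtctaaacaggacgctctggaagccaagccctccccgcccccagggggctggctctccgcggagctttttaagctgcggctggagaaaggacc

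The internal region held the motif 3 times and the upstream region held no match. Over 32851 promoter regions of the same length, 55.6% had at least 1 match on either strand and 6.39% at least 3. Regions before the starts of Nfatc1 and Ppp3ca were not analysed here. Of the other regions, those of Ppp3cb and of the upstream start of Nfatc2 held 3 matches, that of Nfat5 held 2, and those of the second Nfatc2 start and the first Nfatc3 start held 1, while the second Nfatc3 start had no match. A match is a run of letters and not a shown binding site, and occurrences on the strands were counted together.

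Of the 7 genes, 3 were called, which is 42.9%, beside 46.7% of the 16650 genes tested (edgeR quasi-likelihood test, Benjamini-Hochberg adjusted p under 0.05 over all genes tested). Nfat5 and Ppp3ca rose and Nfatc2 fell. Of all genes tested, 23.5% rose and 23.3% fell. The median log2 fold change was 0.08 over the 7 genes and 0.05 over all genes tested. These shares were near the background. In a bulk sample, fewer cells of a type and less RNA per cell cannot be told apart, and this holds for each level below.

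Nfatc1 (ENSMUSG00000033016.16, chr18:80606205-80713071, minus strand, GRCm38), the NFAT gene that activated T cells induce, had the highest level per length of the 7 genes. It stood at 183, 227 and 250 CPM (lowest, median, highest) in Control gRNA and at 190, 214 and 267 in Tardbp gRNA. The highest and the next highest Tardbp gRNA libraries were 267 and 220, and the groups overlapped over most of their range. The log2 fold change was -0.08 (95% interval -0.22 to 0.07, SE 0.07, adjusted p = 0.384). Without Tardbp gRNA replicate 8, the library at 267, it was -0.15 with an adjusted p of 0.0468 (edgeR), so that 1 library decided this call.

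Nfatc2 (ENSMUSG00000027544.16, chr2:168476410-168601657, minus strand), present before stimulation in naive T cells, fell to 76.9% of its Control gRNA mean. It stood at 34.2, 46.4 and 53.7 CPM in Control gRNA and at 29.2, 36.3 and 40.2 in Tardbp gRNA. The Tardbp gRNA libraries lay lower, 3 of 8 below the lowest Control gRNA library, and the groups overlapped. The log2 fold change was -0.38 (SE 0.09, 95% interval -0.57 to -0.19, adjusted p = 0.00213).

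Nfatc3 (ENSMUSG00000031902.10, chr8:106058840-106130537, plus strand), the other calcineurin-regulated member, stood at 91.8, 111 and 133 CPM in Control gRNA and at 88.4, 101 and 119 in Tardbp gRNA. The ranges overlapped almost wholly, and the log2 fold change of -0.12 (95% interval -0.27 to 0.04) was not called (adjusted p = 0.206).

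Nfat5 (ENSMUSG00000003847.16, chr8:107293470-107379517, plus strand), the osmotic stress member, rose to 169% of its Control gRNA mean. It stood at 5.94, 11.4 and 13.3 CPM in Control gRNA and at 14.8, 18.6 and 24.2 in Tardbp gRNA. Each Tardbp gRNA library lay above each Control gRNA library, as was the case without overlap for 16.9% of all genes tested in either direction. The log2 fold change was 0.76 (SE 0.15, 95% interval 0.45 to 1.07, adjusted p = 0.000362). When only transcripts annotated as protein coding were counted, an alternative which was added once the data had been seen, the value was 0.71 with an adjusted p of 0.414.

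Of the calcineurin catalytic subunits, Ppp3ca (alpha isoform, ENSMUSG00000028161.17, chr3:136670124-136937727, plus strand) rose to 129% of its Control gRNA mean. It stood at 32.3, 42 and 54 CPM in Control gRNA and at 44.8, 51.9 and 66.9 in Tardbp gRNA, with 3 of 8 Tardbp gRNA libraries above the highest Control gRNA library. The log2 fold change was 0.37 (SE 0.11, 95% interval 0.14 to 0.59, adjusted p = 0.00935). Ppp3cb (beta isoform, ENSMUSG00000021816.11, chr14:20499364-20546573, minus strand) stood at 33.0, 37.1 and 46.8 CPM in Control gRNA and at 36.9, 39.4 and 47.5 in Tardbp gRNA. Its ranges overlapped, and its log2 fold change of 0.08 (95% interval -0.08 to 0.25) was not called (adjusted p = 0.415).

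Rcan1 (ENSMUSG00000022951.16, chr16:92391953-92470867, minus strand), the feedback inhibitor, stood at 6.28, 8.06 and 9.75 CPM in Control gRNA and at 7.72, 9.40 and 11.4 in Tardbp gRNA. Of the Tardbp gRNA libraries, 3 of 8 lay above the highest Control gRNA library. The log2 fold change was 0.22 (SE 0.10, 95% interval 0.02 to 0.43), with an unadjusted p of 0.036 and an adjusted p of 0.0716 by edgeR. It was not called, and without Control gRNA replicate 6, at 9.75 CPM, it was 0.26 with an adjusted p of 0.0377. It was also called over protein coding transcripts only (0.27, adjusted p = 0.0356), the alternative added for Nfat5.

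The calls of Nfat5, Nfatc2 and Ppp3ca were lost when the RNA concentration entered the fit as a covariate (log2 fold changes 0.60, -0.40 and 0.66, adjusted p 0.239, 0.186 and 0.0532 by edgeR). The concentration ranges of the groups did not overlap, so this fit cannot separate the concentration from the guide. Over all genes it called 2697 of 16650, against 7783 without the covariate. Both points hold wherever this covariate is used below. Libraries numbered 1 to 3 alone gave 0.51, -0.44 and 0.36 (adjusted p 0.12, 0.132 and 0.316) and libraries 4 to 8 alone 0.89, -0.36 and 0.34 (adjusted p 0.00316, 0.0125 and 0.0235), a division known from earlier results of these data.

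**Figure D1:**
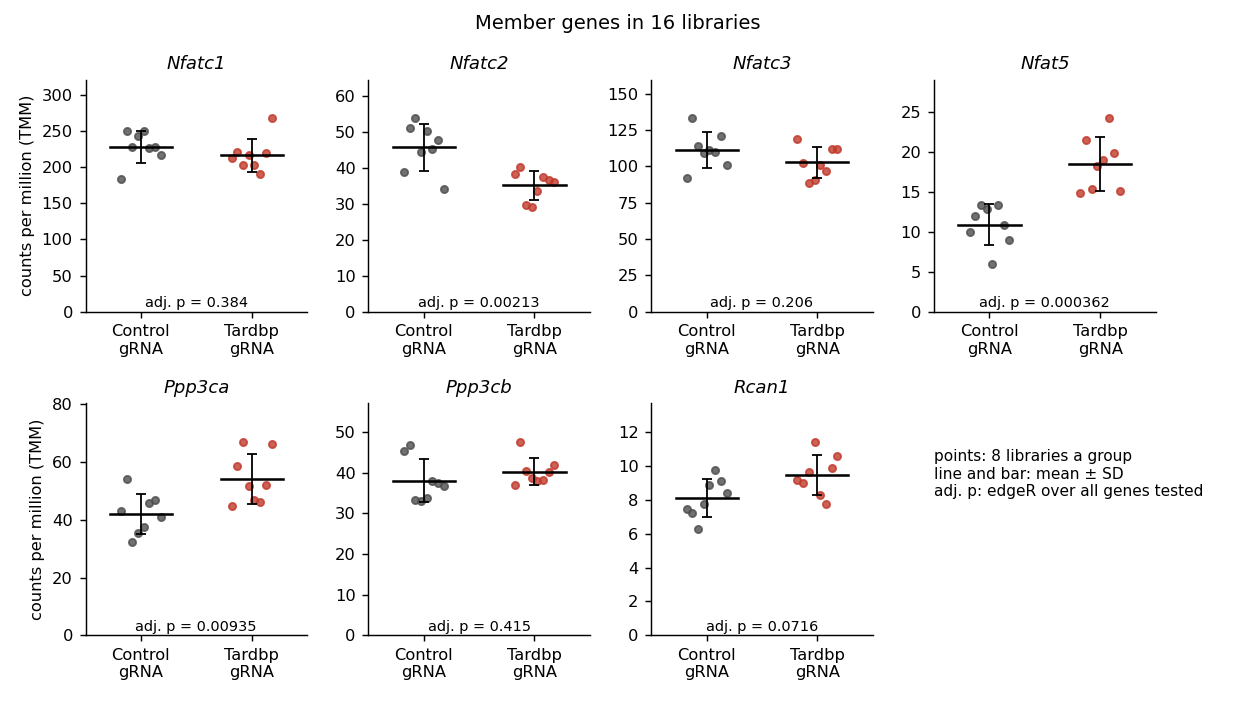
Level of each of the 7 genes in CPM (linear axis from 0), 8 libraries a group as points, with the mean and SD as a line and bar and the edgeR adjusted p. Nfat5 is the gene whose groups do not overlap, with Control gRNA at 5.94 to 13.3 and Tardbp gRNA at 14.8 to 24.2, and the Nfatc1 point at 267 stands above the other Tardbp gRNA libraries.

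Per length, in TPM (counts per length, scaled to a common total) summed over annotated transcripts, the order by group mean was the same in both groups: Nfatc1, Nfatc3, Ppp3cb, Ppp3ca, Nfatc2, Rcan1, Nfat5. The means fell from 82.9 ± 9.44 TPM for Nfatc1 to 2.64 ± 0.573 for Nfat5 in Control gRNA. In Tardbp gRNA they fell from 75.1 ± 8.04 to 4.17 ± 1.02. Nfatc1 was apart from Nfatc3 (32.2 ± 4.36 and 29.1 ± 3.39 TPM), with no overlap in either group. Ppp3cb lay above Ppp3ca in 8 of 8 Control gRNA libraries (21.2 ± 3.21 against 15.5 ± 3.56 TPM) and in 5 of 8 Tardbp gRNA libraries (21.4 ± 1.91 against 20.4 ± 3.54). Their ranges over libraries overlapped in both groups, so that the order of this pair held within each Control gRNA library but not within each Tardbp gRNA library. Nfatc2, at 11.8 ± 1.87 and 9.39 ± 1.21 TPM, was apart from Rcan1, at 5.76 ± 0.846 and 6.42 ± 0.750, in both groups. The ranges of Rcan1 and Nfat5 were apart in Control gRNA and overlapped in Tardbp gRNA.

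For each called gene, the closest patterns among 8975 other genes were found by the root mean square difference of standardized log2 CPM over the 16 libraries, among genes whose mean log2 CPM was 3 or more. For Nfat5 these were Dleu2 (0.45) and Cmc4 (0.524), for Nfatc2 Ap3d1 (0.319), and for Ppp3ca Pank2 (0.255) and Aven (0.259). The libraries share depth and group, so these values describe likeness and were not tested.

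The counts of each gene were next divided over its transcripts. Of the 33 tested transcripts of these genes 4 were called, 3 higher and 1 lower, beside 16.6% of the 40897 transcripts tested. The 3 that rose, Ppp3cb-209, Nfat5-212 and Nfatc3-203, are annotated as retained intron, that is, as RNA that keeps an intron and encodes no protein. The 1 that fell, Nfatc2-202, is protein coding. Nfatc3-203 and Nfatc2-202 lost the call in 11 and 10 of the 16 fits that left out 1 library, and Ppp3cb-209 and Nfat5-212 kept it in 16 of 16. For Nfatc3-203 these were the fits without Control gRNA replicate 1, 3, 5, 7 or 8 or Tardbp gRNA replicate 2, 4, 5, 6, 7 or 8, with adjusted p up to 0.097. For Nfatc2-202 they were the fits without Control gRNA replicate 2, 3, 4, 5 or 7 or Tardbp gRNA replicate 1, 2, 4, 5 or 7, with adjusted p up to 0.0754. The settings that removed the gene calls, RNA concentration as a covariate and libraries 1 to 3 alone, were not run on transcripts.

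Ppp3cb-209 stood at 0.139, 0.236 and 0.469 CPM in Control gRNA and at 0.454, 0.966 and 1.28 in Tardbp gRNA. Nearly the whole range of Tardbp gRNA lay above Control gRNA, with a log2 fold change of 1.59 (SE 0.28, adjusted p = 0.000898). Nfat5-212 stood at 2.17, 3.75 and 5.55 CPM in Control gRNA and at 4.98, 6.95 and 10.1 in Tardbp gRNA, with a log2 fold change of 0.83 (SE 0.21, adjusted p = 0.0118). Nfatc3-203 stood at 0.245, 0.897 and 1.47 CPM and at 0.823, 2.14 and 3.89, with a log2 fold change of 1.09 (SE 0.36, adjusted p = 0.0463). The ranges of these 3 transcripts overlapped between the groups.

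Looked at by annotated type, a grouping made after the values were seen, all 11 tested retained intron transcripts of 5 of the genes (Nfatc2, Nfatc3, Nfat5, Ppp3ca and Ppp3cb) had a log2 fold change above 0. Their median was 1.09, and 3 of 11 were called higher. Of all 8880 tested retained intron transcripts, 67.0% were above 0, the median was 0.24 and 10.5% were called higher. Of the 20 tested protein coding transcripts of the 7 genes, 9 were above 0 and 11 below, with a median of -0.12, beside -0.06 over all 22063 of that type. Nfatc1 and Rcan1 have no annotated retained intron transcript. Those that did not pass the filter on low counts are not among the 11. A transcript could pass that filter by its counts in 1 group. Of those left out, Nfat5-205 had 54 counts in Control gRNA and 1 in Tardbp gRNA, and Nfatc3-207 had 59 and 30. Nfat5-209, Ppp3cb-203, Ppp3cb-204, Ppp3cb-207 and Ppp3cb-208 had more counts in Tardbp gRNA.

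**Figure D2:**
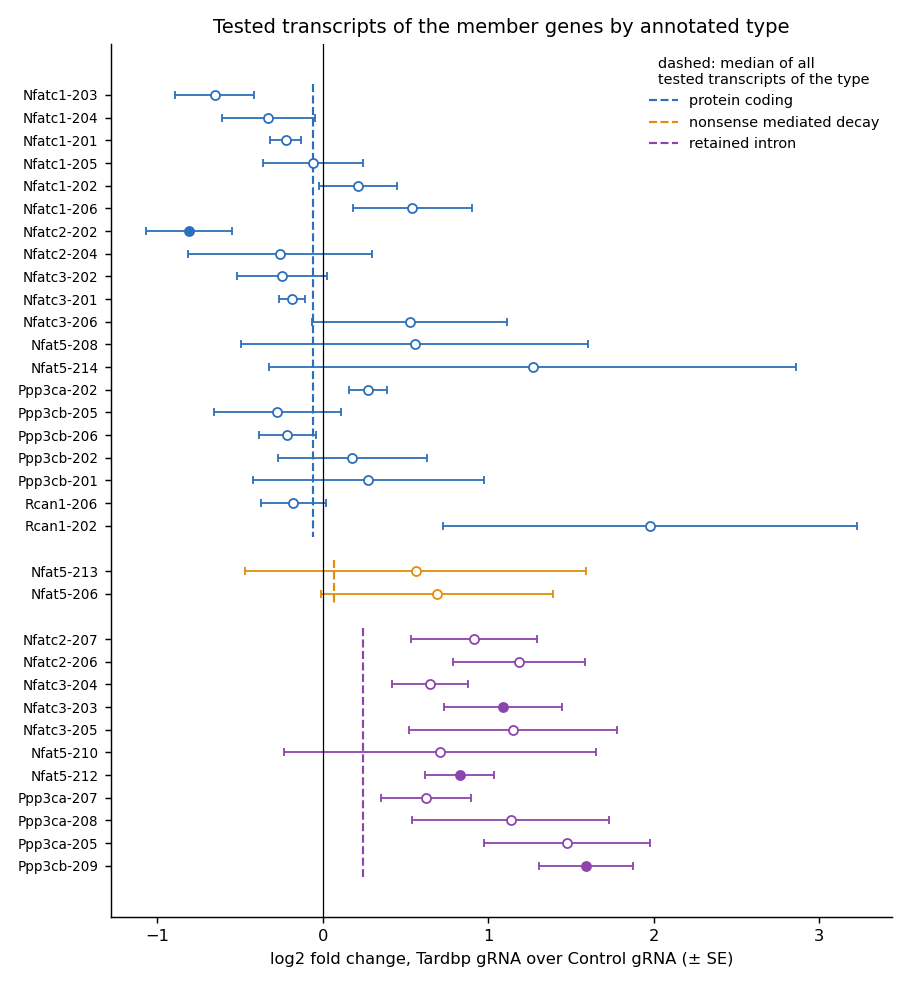
Log2 fold change of the 33 tested transcripts (points, bars are SE), grouped by annotated type. Filled points were called by edgeR and dashed lines are the median of all tested transcripts of that type. The 11 retained intron transcripts lie to the right of 0, while the 20 protein coding ones lie on both sides.

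Retained intron transcripts were a small share of most of these genes. They took 3.03% ± 1.60 of the Nfatc2 counts in Control gRNA and 8.47% ± 2.87 in Tardbp gRNA (SD, n = 8), 1.60% ± 0.597 and 3.42% ± 0.903 of Nfatc3, 1.80% ± 0.596 and 2.73% ± 0.504 of Ppp3ca, and 1.19% ± 0.259 and 2.92% ± 0.723 of Ppp3cb. Nfat5 was the exception, with 40.9% ± 6.58 and 43.0% ± 5.78 of its counts in retained intron transcripts and 37.9% ± 17.5 and 39.2% ± 17.4 in transcripts annotated for nonsense-mediated decay. Protein coding transcripts took 21.2% ± 16.2 and 17.8% ± 16.9 of the Nfat5 counts. These shares are of all Nfat5 counts. As a share of its 6 tested transcripts alone, a smaller total, Nfat5-212, the retained intron transcript with the most counts, was 39.6% ± 7.97 in Control gRNA and 39.3% ± 4.85 in Tardbp gRNA (adjusted p = 0.982 by limma). The means of each of these Nfat5 shares differed between the groups by less than the spread between libraries.

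No transcript share in these genes was called (limma, adjusted p under 0.05 and over 10 percentage points), beside 0.634% of 32819 transcripts in all genes. Below 10 points, 2 shares had an adjusted p under 0.05. Nfatc2-206, a retained intron transcript, went from 1.54% ± 1.2 to 4.51% ± 1.13 of the Nfatc2 counts (adjusted p = 0.00898), and Ppp3cb-209 from 0.758% ± 0.334 to 2.23% ± 0.618 of the Ppp3cb counts (adjusted p = 0.0039).

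Nfatc2 counts came almost wholly from 2 coding transcripts that differ at their 3' end. Nfatc2-204 holds an exon of 86 bases (chr2:168486686-168486771) that includes its stop codon, and Nfatc2-202 skips it. The share of Nfatc2-202 was 47.9% ± 4.73 in Control gRNA and 37.6% ± 21.7 in Tardbp gRNA (adjusted p = 0.565). The Tardbp gRNA libraries ran from 17.8 to 44.2% but for replicate 3, at 85.9%, in which Nfatc2-204 stood at 0.213% against 42.4 to 75.0% in the other 15 libraries. Without that replicate the share of Nfatc2-202 was 17.1 points lower in Tardbp gRNA (adjusted p = 0.0288) and was called. At the transcript level Nfatc2-202 went from 21.3 ± 4.38 to 13.2 ± 6.52 CPM (log2 fold change -0.81, SE 0.26, adjusted p = 0.0407), while Nfatc2-204 went from 21.7 ± 3.34 to 19.5 ± 8.33 (log2 fold change -0.26, SE 0.56, adjusted p = 0.822). Without Tardbp gRNA replicate 3 the log2 fold change of Nfatc2-204 was -0.07 (adjusted p = 0.788), by an alternative added after seeing the data.

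Nfatc1 has a known pair of promoters and early and late polyadenylation sites, through which activated T cells make a short isoform. Transcripts from the upstream start took 25.2, 31.4 and 34.7% of the Nfatc1 counts in Control gRNA and 26, 37.3 and 47.9% in Tardbp gRNA. Of the Tardbp gRNA libraries, 6 of 8 lay above the highest Control gRNA library. The difference was 6.05 points (95% interval 0.498 to 11.6, adjusted p = 0.205) and was not called, beside 0.618% of 12936 start shares in all genes. Transcripts with the proximal end took 52.4% ± 3.13 for Control gRNA and 54.1% ± 2.02 for Tardbp gRNA, differing by 1.71 points (95% interval -1.04 to 4.46, adjusted p = 0.435). The largest transcript, Nfatc1-201, which joins the downstream start to the proximal end, took 43.8% ± 3.79 and 40.8% ± 6.51. The other 5 coding transcripts took means of 8.20 to 14.3%.

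No end share of these genes was called either, beside 1.15% of 16759 in all genes. The distal Nfatc2 end, of Nfatc2-202 and Nfatc2-204, went from 97.0% ± 1.61 to 91.5% ± 2.90 (-5.49 points, adjusted p = 0.00558), and the Nfatc3 end shared by its coding transcripts from 98.5% ± 0.592 to 96.6% ± 0.905 (-1.85 points, adjusted p = 0.0046). In both genes the counts that left these ends lay on ends of retained intron transcripts. With counts divided by transcript length, the Nfatc2 difference was -12 points and was called.

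As estimated per transcript, Rcan1 counts came almost wholly from the upstream start. Rcan1-201, the transcript of the internal start whose promoter is printed above, had 2 counts in 1 of 8 Control gRNA libraries and 47 counts over 4 of 8 Tardbp gRNA libraries, and was listed at 0 in the other 11. It did not pass the filter on low counts, and no fold is given. The upstream counts fell to Rcan1-206, at 92.4% ± 13.6 and 72.2% ± 18.6, and Rcan1-202, at 7.63% ± 13.6 and 27.8% ± 18.6 (adjusted p = 0.199). Their first exons of 311 and 314 bases share 1 splice site, and their other exons differ by no more than 2 bases at the end of the gene, so that nearly all reads fit both.

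Ppp3cb counts lay on 4 coding transcripts at means of 18.7 to 29.0%, with spreads between libraries of up to 17.1 points, and 1 transcript, Ppp3ca-202, held 98.2% ± 0.620 and 97.2% ± 0.494 of the Ppp3ca counts. For Nfatc3 the main transcript, Nfatc3-201, held 94.9% ± 1.65 and 93.0% ± 1.19. Of Nfat5, the other transcripts at a mean share of 10% or more were Nfat5-206, at 35.8% ± 21.1 and 35.9% ± 19.0, and Nfat5-214, at 8.78% ± 15.6 and 13.2% ± 17.0.

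Splicing was also given by the authors as Psi, the fraction of reads that include a node (a piece of exon), with 1 value for each group and none for each library, so that no replicate check could be made. Of 91 nodes in the 7 genes, 7 differed by over 0.1, or 7.69%, beside 4.7% of 125520 nodes in all genes. The 54-base Nfat5 exon printed above had the widest difference of the 91 nodes, with a group Psi of 0.169 for Control gRNA against 0.611 for Tardbp gRNA. The 86-base Nfatc2 exon had 0.537 and 0.686, and the 30-base Ppp3cb exon 0.915 and 0.781. The other 4 nodes were starts, 2 of Nfat5 and 2 of Ppp3ca. For Nfatc1 the first exon of the downstream start had 0.585 and 0.485. For Rcan1 the first exon of the internal start had 0.0638 and 0.0932. The transcript counts put almost none there, 2 in Control gRNA and 47 in Tardbp gRNA, so the measures differ for this start.

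**Figure D3:**
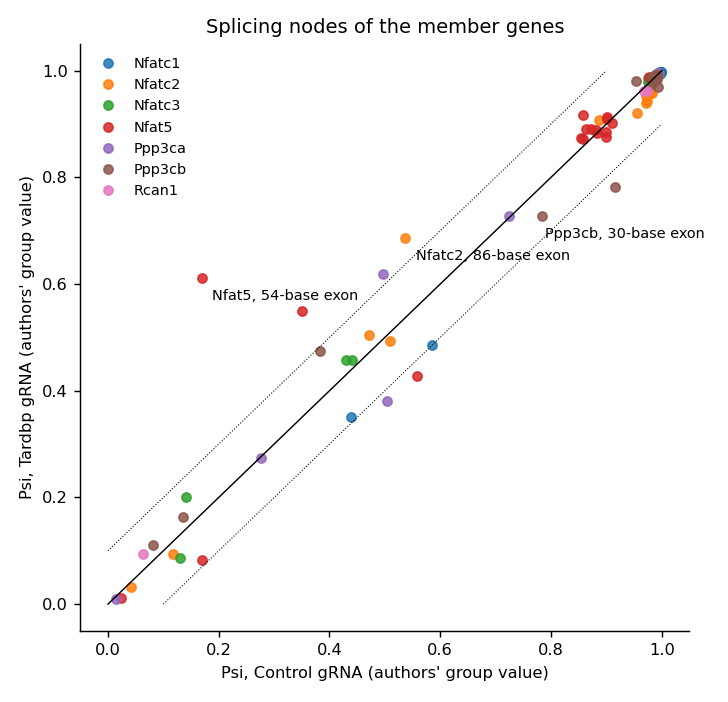
The authors' group Psi in Control gRNA (horizontal) and Tardbp gRNA (vertical) for 91 nodes of the 7 genes, coloured by gene. The solid line marks equal values and dotted lines a difference of 0.1. The 54-base Nfat5 exon lies farthest from the line, at 0.169 and 0.611.

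For these 3 exons, chosen for their group Psi, inclusion in each library was rebuilt from transcript counts per length, as a description with no test. The Nfat5 exon stood at 80.1% ± 14.1 in Control gRNA and 83.2% ± 13.9 in Tardbp gRNA (SD, n = 8), with wide overlap. Its group Psi was 0.169 and 0.611, so the 2 measures were far apart in Control gRNA already. The rebuilt values therefore cannot show whether the difference in Psi holds. Nfat5-212, a retained intron transcript, holds this exon and enters these values. The Nfatc2 exon stood at 49.9% ± 5.49 in Control gRNA and 57.9% ± 25.5 in Tardbp gRNA, where 5 of 8 libraries lay above the highest Control gRNA library, at 59.5%, and 1, replicate 3, lay at 0.241%. The Ppp3cb exon stood at 64.2% ± 19.9 and 58.6% ± 21, with wide overlap. Its group Psi was 0.915 and 0.781, so its rebuilt Control gRNA mean lay well below the Psi. Here too the rebuilt values cannot show whether the difference in Psi holds.

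**Figure D4:**
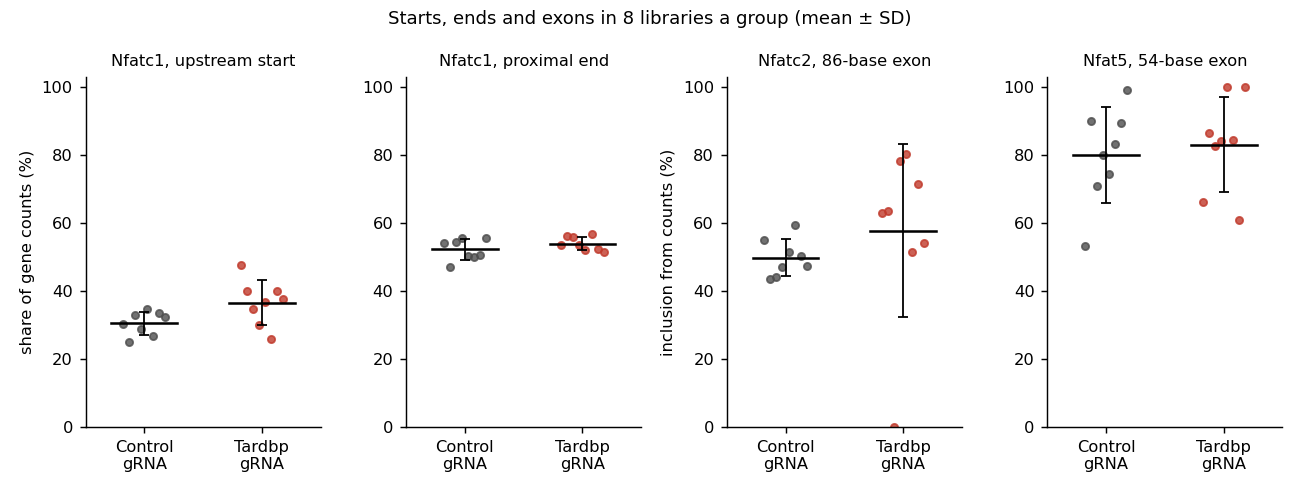
Share of Nfatc1 counts from the upstream start and at the proximal end, and inclusion of the Nfatc2 and Nfat5 exons rebuilt from counts, in percent, for 8 libraries a group (points) with the mean and SD. The Nfatc2 panel shows 1 Tardbp gRNA library at 0.241% and 5 above the Control gRNA range.

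The rest of the pathway was read from 6 lists with 65 tested genes, of which 44 were called, 28 higher and 16 lower, or 67.7% beside 46.7% of all genes tested. With the RNA concentration as a covariate 15 were called, beside 2697 of all 16650 genes tested. In libraries 1 to 3 alone 10 were called, beside 1696 of 16871. The lists were written with earlier results of these data known, and the share is a description. Of the other calcineurin subunits and NFAT genes, 3 of 3 were called. Ppp3cc, the gamma catalytic subunit, rose from 35.8 ± 7.83 to 50.6 ± 14.0 CPM (log2 fold change 0.50, SE 0.16, adjusted p = 0.0135). Ppp3r1, the regulatory B subunit that binds calcium, fell from 93.9 ± 8.23 to 69.8 ± 10.6 CPM (-0.43, SE 0.08, adjusted p = 0.000365). Nfatc2ip, a partner of Nfatc2, fell from 7 ± 1.49 to 5.25 ± 0.838 CPM (-0.41, SE 0.14, adjusted p = 0.0198). Nfatc4 and Ppp3r2 were at 0 counts in all 16 libraries. So the catalytic subunit genes Ppp3ca and Ppp3cc were called higher, Ppp3cb was not called (adjusted p = 0.415 by edgeR), and Ppp3r1 was called lower. The Ppp3ca call was lost with the RNA concentration as a covariate and in libraries 1 to 3 alone. Under these settings Ppp3cc and Ppp3r1 were counted in the list totals only. Genes named here under a log2 fold change of 0.5 were chosen after their values were seen.

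Of 7 tested regulators and partners of calcineurin, 1 was called higher and 2 lower, or 42.9% beside 46.7% of all genes tested. The list median was -0.02. Cabin1, a calcineurin inhibitor, fell from 90.7 ± 8.55 to 68.6 ± 5.30 CPM (log2 fold change -0.40, adjusted p = 3.55e-05). Chp1, another inhibitor, fell from 136 ± 7.45 to 109 ± 7.14 CPM (-0.32, adjusted p = 1.53e-05). For both inhibitors the groups did not overlap, as for 16.9% of all genes tested in either direction. Homer3, a scaffold protein that competes with calcineurin for NFAT, rose from 1.03 ± 0.191 to 1.51 ± 0.337 CPM (0.55, adjusted p = 0.00939). This Homer3 call was lost in libraries 4 to 8 alone (0.45, adjusted p = 0.105), in libraries 1 to 3 alone (adjusted p = 0.201) and with the RNA concentration as a covariate (adjusted p = 0.362, edgeR). Rcan3 had a log2 fold change of -0.15 (adjusted p = 0.289), and Rcan2 was at 0 counts in all libraries.

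Of 10 kinases that phosphorylate NFAT or keep it out of the nucleus, 3 were called higher and 2 lower, with a median of 0.08. This share, 50%, was near the 46.7% of all genes tested. Those higher were Dyrk1a (0.49), Dyrk2 (0.36) and Csnk1e (0.34), and those lower Csnk1d (-0.26) and Lrrk2 (-1.26, SE 0.41, adjusted p = 0.017), a kinase at 1.22 ± 0.504 CPM in Control gRNA and 0.506 ± 0.438 in Tardbp gRNA. The Lrrk2 call was lost in libraries 1 to 3 alone (adjusted p = 0.224) and with the RNA concentration as a covariate (adjusted p = 0.361, edgeR). The glycogen synthase kinase genes Gsk3a (0.05) and Gsk3b (0.13) were not called.

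Of 23 genes of calcium entry and calmodulin, 11 were called higher and 5 lower, with a median of 0.16. Called were 69.6%, beside 46.7% of all genes tested. The pore genes of the plasma membrane channel were called higher, Orai1 from 22.8 ± 4.90 to 39.0 ± 8.20 CPM (log2 fold change 0.78, SE 0.15, adjusted p = 0.000274), Orai2 (0.26) and Orai3 (0.32). The calcium sensors that open it, Stim1 (-0.10, adjusted p = 0.213) and Stim2 (0.03, adjusted p = 0.852), were not called. The inositol trisphosphate receptors, which release stored calcium, moved in both directions, 1 up and 2 down. Itpr2 rose from 15.2 ± 4.71 to 28.8 ± 3.14 CPM (0.92, SE 0.15, adjusted p = 7.32e-05), and Itpr1 fell from 47.3 ± 7.32 to 28.4 ± 3.71 CPM (-0.74, SE 0.10, adjusted p = 7.01e-06). Itpr3 also fell, from 17.8 ± 3.87 to 13.5 ± 2.75 CPM (-0.40, adjusted p = 0.028). With the RNA concentration as a covariate the calls of Itpr2 (0.64, adjusted p = 0.212) and Orai1 (0.96, adjusted p = 0.051) were lost by edgeR, and that of Orai1 also in libraries 1 to 3 alone (adjusted p = 0.0682).

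Of 17 known NFAT target genes of T cells, 11 were called higher and 3 lower, with a median of 0.38. Called were 82.4%, beside 46.7% of all genes tested. Egr2 rose from 8.25 ± 3.82 to 25.1 ± 8.44 CPM (log2 fold change 1.60, SE 0.26, adjusted p = 6.3e-05) and Egr3 from 1.38 ± 0.446 to 4.01 ± 1.65 (1.54, SE 0.27, adjusted p = 0.000107). Both encode zinc finger factors that activated T cells induce. The cytokine genes Ifng (1.30, SE 0.16, adjusted p = 2.44e-06) and Tnf (0.90, SE 0.10, adjusted p = 9.67e-07) rose with no overlap of the groups, Ifng from 8.68 ± 2.30 to 21.4 ± 4.29 CPM. The orphan receptor genes Nr4a1 (0.88), Nr4a3 (0.77) and Nr4a2 (0.74) rose. Il2ra, the alpha chain of the interleukin-2 receptor, fell from 145 ± 29.6 to 74.1 ± 15.7 CPM (-0.97, SE 0.14, adjusted p = 1.2e-05), also with no overlap. Groups without overlap were found for 16.9% of all genes tested in either direction. Irf4 (-0.39, adjusted p = 0.00152 by edgeR) and Pdcd1 (-0.20, adjusted p = 0.00399) were also called lower. Il2 (0.25, adjusted p = 0.149 by edgeR), Cd40lg (-0.16, adjusted p = 0.751) and Havcr2 (-0.12, adjusted p = 0.545) were not called. Irf4, Pdcd1, Il2, Cd40lg and Havcr2 were named after their values were seen. With the RNA concentration as a covariate the calls of Il2ra (-0.65, adjusted p = 0.125), Egr2 (1.83, adjusted p = 0.0581) and Nr4a1 (1.02, adjusted p = 0.135) were lost by edgeR. In libraries 1 to 3 alone those of Nr4a1, Nr4a2 and Nr4a3 were lost (adjusted p = 0.0679, 0.117 and 0.0559).

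Of 5 osmotic stress targets of Nfat5, 1 was called higher and 2 lower, with a median of -0.38. Called were 60%, beside 46.7% of all genes tested. Slc38a2, an amino acid transporter, fell from 131 ± 5.97 to 90.6 ± 8.87 CPM (log2 fold change -0.54, SE 0.06, adjusted p = 4.92e-07) and the taurine transporter Slc6a6 from 93.7 ± 6.54 to 72.0 ± 8.33 CPM (-0.38, adjusted p = 0.000147). Akr1b3, the aldose reductase gene, rose by 0.09 on the log2 scale (adjusted p = 0.0271). Nfat5 itself stood at 10.9 ± 2.56 CPM in Control gRNA and 18.5 ± 3.39 in Tardbp gRNA.

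**Figure D5:**
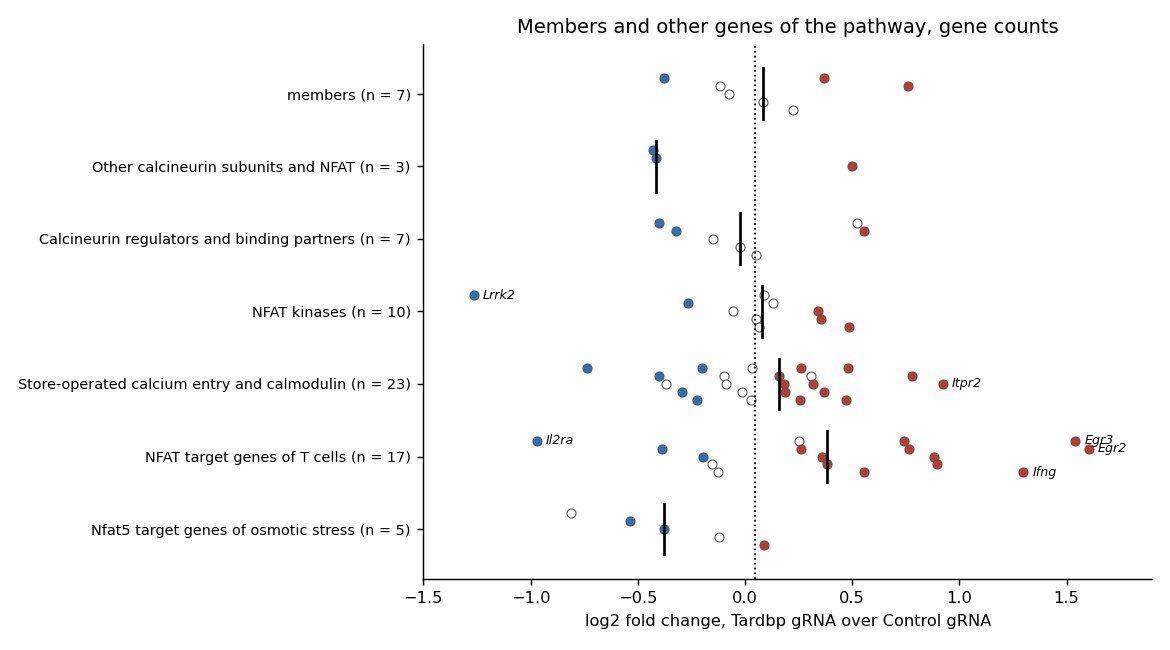
Log2 fold change of the 7 genes and of 65 tested genes in 6 lists of the pathway (points). Red and blue points were called higher and lower by edgeR, open points were not called, black bars are list medians and the dotted line is the median of all genes tested, 0.05. Of the 17 T cell targets, 11 are red and 3 blue.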

How the data were processed

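RNA of sorted CD8+ T cells (8 libraries in each group) had been made into unstranded libraries (SMART-Seq v4, Nextera XT). The authors aligned reads to mm10 with HISAT2 2.1.0, used SAMtools 1.9, and made the deposited estimated counts per gene and transcript with StringTie 2.1.0, without normalization. The deposited Psi values, a fraction for each group, came from the authors' Whippet run, and their columns were told apart by an exon the study's text describes. The authors' own differences and probabilities were not used. The deposited RNA concentration and a letter M or F, under the header sex, served as covariates. The letter F was the more frequent in Control gRNA and M in Tardbp gRNA. A further 10 columns of each count table match no sample and were not used.

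Annotated genes (55536) and transcripts (141862) of GENCODE M21 were kept, and 0.0836 to 0.132% of counts lay on lines without a gene name. Reads are not independent molecules, and the counts carry no strand, so that overlapping genes share reads. Differences of genes and transcripts were tested with edgeR 4.0.16 under R 4.3.3 (quasi-likelihood, TMM, filterByExpr with minimum count 10, total 15 and proportion 0.7; two-sided, adjusted p under 0.05 by Benjamini-Hochberg over all features). Shares were tested with limma 3.58.1. DESeq2 1.42.0 was an alternative. Standard errors of edgeR are the log2 fold change over the root of F. Each fit was also run on simulated data in which few features changed, while 46.7% of the genes tested were called here. These simulations do not show how the fits behave with so many differences. Start and end classes join transcripts whose first or last exons overlap.

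The 7 genes and the lists were chosen with earlier results of these data known. Named were the 7 genes, their transcripts with a mean share of at least 10% or a call, called list genes over 0.5 in log2 fold change (at most 8 a list by size), and for each called gene the 2 closest patterns, of which 1 is not reported here. By the study's text the cells came from individual recipient mice, which the labels do not state.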

Additional observations from a re-analysis of the deposited data

Results flagged for a closer look

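In 70 groups of 8 libraries examined, 7 had a highest or lowest library whose gap to the next was, relative to the range of the group, above the critical value of Dixon's test at 95%, where chance gives about 1 in 20 groups. Nfatc1 was 267 CPM in Tardbp gRNA replicate 8, with 220 next. Ppp3cb was 47.5 CPM in Tardbp gRNA replicate 2, with 41.9 next. Nfat5-214 was 4.53 CPM in Control gRNA replicate 7, with 1.96 next, and 9.09 CPM in Tardbp gRNA replicate 4, with 3.53 next. Nfatc2-204 was 0.0643 CPM in Tardbp gRNA replicate 3, with 18.5 next, and inclusion of the 86-base Nfatc2 exon was 0.241% in the same library, with 51.5% next, from the same counts. The share of the coding Nfatc3 end was 94.7% in Tardbp gRNA replicate 2, with 96.4% next. What set these libraries apart was not tested.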

How the results depend on the processing

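Of the 7 genes, 3 were called, as under DESeq2, RLE normalization, no filter on low counts and the letter M or F as a covariate. The count was 4 with upper quartile normalization and with libraries 1 to 3 against 4 to 8 as a block, where Rcan1 joined, and 0 in libraries 1 to 3 alone and with the RNA concentration as a covariate. Over all genes, these last settings called 1696 and 2697. For the pathway lists the count was 44, against 10 and 15 under the same settings. Leaving out 1 library gave 3 to 4 genes called and 38 to 43 in the lists. Ppp3cb was -0.038 in libraries 1 to 3 alone (adjusted p = 0.913 by edgeR). Of transcripts 4 were called, 10 by DESeq2, and 2 to 5 when 1 library was left out (2 without Control gRNA replicate 5 or 7 or Tardbp gRNA replicate 4 or 5). Of transcript shares 0 were called by limma, 5 on a log2 ratio scale, and 0 to 1 when 1 library was left out (1 without Tardbp gRNA replicate 3). Of start and end shares 0 were called, 1 with counts divided by length and 10 on the log2 ratio scale, where no minimum difference in points applies, and 0 when 1 library was left out. The Nfatc1-201 share was 1.19 points higher in libraries 4 to 8 alone (adjusted p = 0.894 by limma). The cause of these changes was not tested.

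With the library number as a replicate block, 3 of the 7 genes, 43 list genes, 3 transcripts and 0 shares were called. Same-numbered libraries had correlations of -0.0048 to 0.1596, and 2 of 8 numbers correlated best with themselves, so the numbers were not taken as pairs. With this block 10 of 11 retained intron transcripts were above 0, and 11 of 11 under DESeq2, without the filter and in libraries 4 to 8 alone.

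The median log2 fold change of all genes was 0.05, and 0.12 with upper quartile normalization. Rcan1 and low transcripts are limited by depth, with 2 counts or fewer of Rcan1-201 in each Control gRNA library.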
